A study of Mus musculus with 8 samples.

Results

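The genes described here are 9 genes that define or serve B lymphocytes: Cd79a, Cd79b, Cd22, Ms4a1, Fcer2a, Cr2, Blk, Pax5 and Igj. They were taken by gene name from a table of 37583 genes, and each matched 1 row. The 8 RNA sequencing libraries were made from liver of C57BL6/CBA mice aged 8 months. The PR-SET7_LOBE group (4 libraries) has the genotype label PR-SET7_LX_ALB_CRE, an inactivation of the histone H4 methyltransferase Pr-Set7 that the series describes as restricted to hepatocytes. The DEN_WT group (2 libraries) came from wild-type mice that received the liver carcinogen diethylnitrosamine (DEN) intraperitoneally at 15 days of age, at a labelled dose of 25 ml per kg with no concentration. The WT group (2 libraries) came from untreated wild-type mice. The labels do not explain the word LOBE. The albumin promoter named in the Cre label is, as background, active in hepatocytes.

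B cells recognise antigen through a membrane immunoglobulin that signals through the Cd79a and Cd79b chains, whose tails are phosphorylated by Src-family kinases such as Blk. Cr2 and Cd22 tune that signal, Cr2 by lowering the threshold when antigen carries complement and Cd22 by recruiting phosphatases. Pax5 is the transcription factor that commits cells to the B lineage, and Igj is made mainly by antibody-secreting cells, where the J chain links polymeric IgM and IgA. The adult liver holds few B cells, scattered in the sinusoids and in portal tracts, and they can accumulate in inflamed or tumour-bearing liver.

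Cd22 and Fcer2a, the low-affinity IgE receptor of B cells, had the smallest adjusted p of the 8 tested genes in DEN_WT over WT, and Cd79a, the receptor chain, shows another pattern. Their RefSeq promoter windows (GRCm38.p6, 250 bases before to 50 after the annotated start) are shown for that reason. The Cd22 window is chr7:30878979-30879278 on the minus strand, the Fcer2a window is chr8:3694125-3694424 on the minus strand, the outermost of 3 annotated starts, and the Cd79a window is chr7:24897247-24897546 on the plus strand. Capitals mark matches to any of 5 strings searched on both strands.
Cd22: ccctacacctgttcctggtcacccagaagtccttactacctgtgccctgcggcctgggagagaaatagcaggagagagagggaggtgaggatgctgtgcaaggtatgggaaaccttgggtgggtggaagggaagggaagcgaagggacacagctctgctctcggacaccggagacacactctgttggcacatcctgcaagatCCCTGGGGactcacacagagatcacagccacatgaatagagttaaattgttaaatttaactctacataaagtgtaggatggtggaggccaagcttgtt
Fcer2a: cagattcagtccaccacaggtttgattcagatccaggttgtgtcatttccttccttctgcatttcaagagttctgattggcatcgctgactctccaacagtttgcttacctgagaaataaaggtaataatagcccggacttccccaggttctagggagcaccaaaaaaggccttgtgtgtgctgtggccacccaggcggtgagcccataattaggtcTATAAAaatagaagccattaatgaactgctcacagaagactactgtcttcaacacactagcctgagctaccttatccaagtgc
Cd79a: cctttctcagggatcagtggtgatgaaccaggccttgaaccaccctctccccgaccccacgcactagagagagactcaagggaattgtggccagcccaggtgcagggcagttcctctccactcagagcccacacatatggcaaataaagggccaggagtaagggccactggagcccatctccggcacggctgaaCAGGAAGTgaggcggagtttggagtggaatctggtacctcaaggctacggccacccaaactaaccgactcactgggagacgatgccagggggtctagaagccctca
The strings were the octamer ATGCAAAT, the core CCCNNGGG bound by the B cell factor Ebf1, the ETS string CAGGAAGT, the HNF1 half-site GTTAAT and the TATA string TATAAA. They were found in 1.74%, 13.7%, 3.33%, 7.1% and 13.6% of all 32851 promoter windows, and no matches overlapped within the windows shown. The Cd22 window held 1 match to the Ebf1 core, beginning 48 bases before the start. The Fcer2a window held 1 TATA string, 33 bases before the start, and the Cd79a window held 1 ETS string, 56 bases before it. The windows at the other Fcer2a starts, not shown, held no match to any of the 5 strings. Windows were found for 6 of the 9 genes. The counts are per gene, so the start used in these livers was not measured.

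Total counts ran from 7305595 to 16108081 per library, and 1 count corresponded to between 0.0883 and 0.0957 CPM (counts scaled to a common library size, after TMM normalisation). Replicates correlated at r = 0.872 to 0.947 across genes in PR-SET7_LOBE, 0.979 in DEN_WT and 0.949 in WT. Setd8, the gene of Pr-Set7, was at 62.6, 57.4, 47.9 and 46.5 CPM in PR-SET7_LOBE, 40.0 and 42.8 CPM in DEN_WT, and 51.9 and 56.0 CPM in WT. It did not pass the test between PR-SET7_LOBE and WT (log2 fold change -0.01, SE 0.32, edgeR adjusted p = 0.994). These are counts of the whole gene in whole liver and cannot check the genotype labels. The hepatocyte markers, among them Alb, Apoa1 and Ttr, summed to between 45998 and 165073 CPM in PR-SET7_LOBE, between 124129 and 157419 CPM in DEN_WT and between 108216 and 143167 CPM in WT.

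The B cell receptor chains were low everywhere and highest in the PR-SET7_LOBE libraries. Cd79a (ENSMUSG00000003379, mm9 chromosome 7, 25682400 to 25687216) had 24, 24, 18 and 22 counts in PR-SET7_LOBE, 9 and 2 counts in DEN_WT, and 6 and 4 counts in WT. On the CPM scale these were 2.25, 2.30, 1.67 and 2.00 in PR-SET7_LOBE, 0.797 and 0.177 in DEN_WT, and 0.574 and 0.369 in WT. Every PR-SET7_LOBE library lay above every other library, while DEN_WT and WT overlapped. Cd79b (ENSMUSG00000040592, mm9 chromosome 11, 106172655 to 106176076), its partner chain, had 35, 25, 26 and 32 counts in PR-SET7_LOBE, 4 and 3 counts in DEN_WT, and 2 and 6 counts in WT. In CPM this was 3.29, 2.39, 2.41 and 2.92 in PR-SET7_LOBE, 0.354 and 0.265 in DEN_WT, and 0.191 and 0.553 in WT, with the same separation of PR-SET7_LOBE from the other libraries. In RNA of bulk liver, a different number of B cells and a different amount of RNA per cell cannot be told apart.

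Cd22, the inhibitory co-receptor, followed another order. Cd22 (ENSMUSG00000030577, mm9 chromosome 7, 31650421 to 31665361) was at 20.1, 14.4, 12.0 and 23.6 CPM in PR-SET7_LOBE, 2.30 and 0.972 CPM in DEN_WT, and 26.3 and 31.0 CPM in WT. The 3 groups did not overlap, and DEN_WT was the lowest. Fcer2a (ENSMUSG00000005540, mm9 chromosome 8, 3681737 to 3694174) was at 10.8, 18.2, 7.61 and 7.47 CPM in PR-SET7_LOBE, 0.443 and 0.0883 CPM in DEN_WT, and 11.0 and 14.2 CPM in WT. PR-SET7_LOBE and WT overlapped, and the DEN_WT libraries, with 5 counts and 1 count, lay far below both.

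Ms4a1, which encodes the B cell membrane protein CD20, and the complement receptor Cr2 were at the edge of detection in most libraries. Ms4a1 (ENSMUSG00000024673, mm9 chromosome 19, 11324654 to 11340669) had 4, 8, 18 and 18 counts in PR-SET7_LOBE, 6 and 3 in DEN_WT, and 2 and 0 in WT. PR-SET7_LOBE lay above WT and overlapped DEN_WT. Cr2 (ENSMUSG00000026616, mm9 chromosome 1, 196963005 to 197002909) had 0, 12, 20 and 61 counts in PR-SET7_LOBE, 17 and 7 in DEN_WT, and 4 and 12 in WT. The groups overlapped for Cr2, and PR-SET7_LOBE itself spanned the whole range; its 0 counts in replicate 1 allow up to 0.282 CPM (3 counts, counting error only). PR-SET7_LOBE replicate 1 thus lacked counts of Cr2 while it held 24 and 35 counts of Cd79a and Cd79b.

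Blk (ENSMUSG00000014453, mm9 chromosome 14, 63991674 to 64036024) had 5, 8, 9 and 20 counts in PR-SET7_LOBE, 4 and 4 in DEN_WT, and 0 and 6 in WT. PR-SET7_LOBE lay above DEN_WT for Blk and overlapped WT. Pax5 (ENSMUSG00000014030, mm9 chromosome 4, 44544017 to 44724318) had 5, 0, 3 and 10 counts in PR-SET7_LOBE, 1 and 1 in DEN_WT, and 0 and 0 in WT. It was the only 1 of the 9 genes that did not pass the count filter, so it has no test. Its summed level in PR-SET7_LOBE was 2.98 times the level that 3 counts over the WT group would give. It was 4.75 times that of DEN_WT (95% counting interval from 1.14 to 42.2). Neither value covers the spread between libraries, and the PR-SET7_LOBE libraries overlapped both other groups. Pax5 and Ms4a1 each overlap a gene on the opposite strand in the deposited coordinates (Gm12462 and 4930526L06Rik, at most 0.185 CPM on average in any group); Pax5 also overlaps Mir5120, which had no counts.

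Igj (ENSMUSG00000067149, mm9 chromosome 5, 88949537 to 88956916) was at 3.94, 13.2, 28.6 and 8.93 CPM in PR-SET7_LOBE, 7.26 and 9.36 CPM in DEN_WT, and 0.766 and 2.49 CPM in WT. All 6 libraries of PR-SET7_LOBE and DEN_WT lay above the WT libraries, and PR-SET7_LOBE replicate 3 was the highest.

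**Figure D1:**
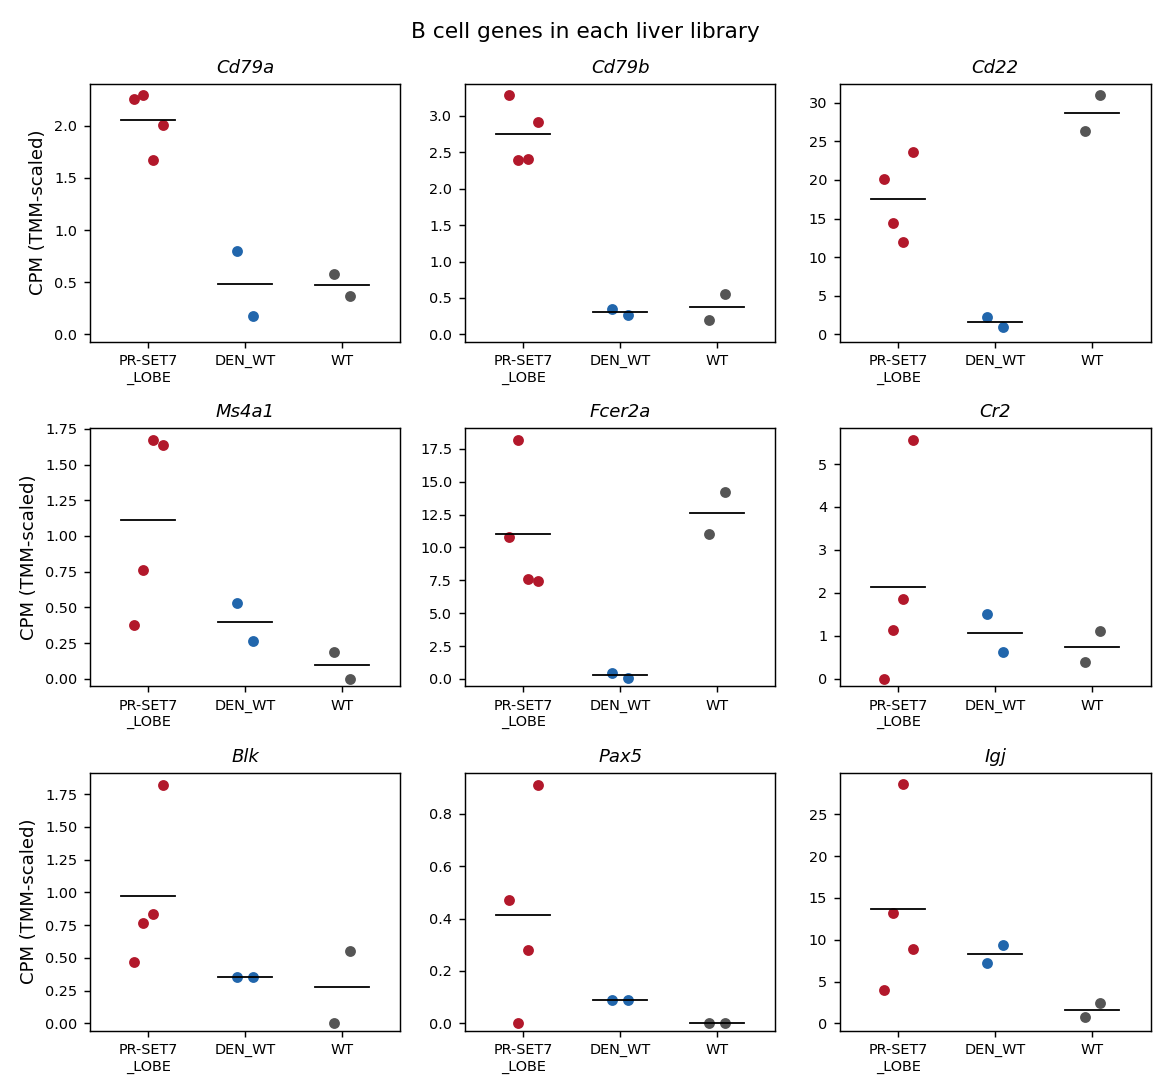
Level of each of the 9 genes in CPM (TMM-scaled, linear axes that differ between panels), with 1 point per library and a line at the group mean. Cd79a and Cd79b were highest in all 4 PR-SET7_LOBE libraries, whereas Cd22 and Fcer2a were high in PR-SET7_LOBE and WT and near 0 in DEN_WT.

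Per kilobase of exon, the order of the genes differed between groups. In PR-SET7_LOBE, Igj (5.43 ± 4.23), Fcer2a (3.56 ± 1.62) and Cd22 (3.48 ± 1.05) were followed by Cd79b (1.92 ± 0.301) and Cd79a (1.41 ± 0.197), all in CPM per kilobase (SD, n = 4), and the first 3 did not differ beyond their spread. In DEN_WT, Igj led at 3.30 ± 0.590 CPM per kilobase, and Cd79a (0.334 ± 0.301), Cd22 (0.325 ± 0.187) and Cd79b (0.216 ± 0.0441) did not differ beyond their spread (SD, n = 2). In WT, Cd22 (5.68 ± 0.654) and Fcer2a (4.08 ± 0.730) stood far above Igj (0.647 ± 0.484), Cd79a (0.324 ± 0.0997) and Cd79b (0.260 ± 0.179 CPM per kilobase; SD, n = 2). Blk, Cr2, Ms4a1 and Pax5 were at 0.361, 0.264, 0.180 and 0.0468 CPM per kilobase in PR-SET7_LOBE, and at or under 0.131 in DEN_WT and in WT. The ratio of Cd22 to Cd79a counts was 8.92, 6.29, 7.17 and 11.8 in PR-SET7_LOBE, 2.89 and 5.50 in DEN_WT, and 45.8 and 84 in WT. The WT livers thus held Cd22 and Fcer2a at their highest or near-highest level while Pax5 had 0 counts, and Cd79a, Cd79b and Ms4a1 had between 0 and 6 counts per library. The cells that the Cd22 and Fcer2a reads came from were not measured.

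**Figure D2:**
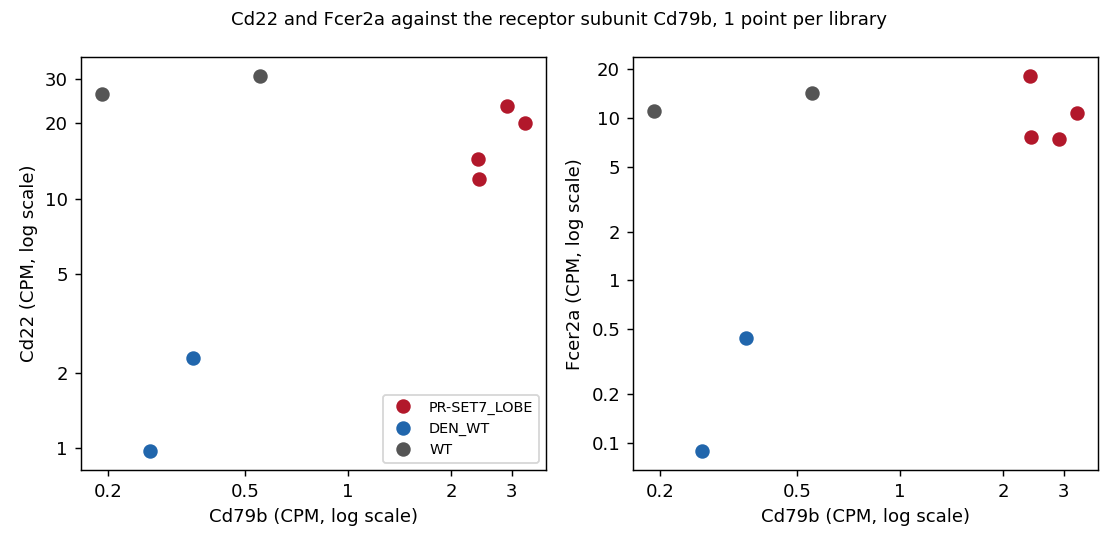
Cd22 (left) and Fcer2a (right) against Cd79b, in CPM on log axes, 1 point per library. WT libraries combine high Cd22 (26.3 and 31.0 CPM) with low Cd79b (0.191 and 0.553 CPM), DEN_WT libraries are low in both, and PR-SET7_LOBE libraries are high in both.

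The first comparison set Pr-Set7 inactivation against untreated wild-type liver. None of the 8 tested genes passed at an edgeR adjusted p under 0.05, where 0.248% of all 17362 tested genes did (0.15% higher and 0.0979% lower). DESeq2 called 2 of them higher and none lower, against 3.25% and 1.18% of the genes it tested, and 4 had an unadjusted p under 0.05, against 17.2% of all genes. Cd79a, Cd79b, Ms4a1 and Igj were above WT in all 4 PR-SET7_LOBE libraries with no overlap, which held for 11.6% of all tested genes. Cd22 was below WT without overlap, as were 10.5% of all genes, so the groups did not overlap for 5 of 8 members and for 22.1% of all genes. Cd79b averaged 2.75 ± 0.431 CPM in PR-SET7_LOBE (SD, n = 4) and 0.372 ± 0.256 CPM in WT (SD, n = 2) (log2 fold change 2.84, SE 0.74, edgeR adjusted p = 0.134). Cd79a averaged 2.06 ± 0.287 CPM in PR-SET7_LOBE and 0.472 ± 0.145 CPM in WT (log2 fold change 2.10, SE 0.80, adjusted p = 0.239). Igj averaged 13.7 ± 10.6 CPM in PR-SET7_LOBE and 1.63 ± 1.22 CPM in WT (log2 fold change 3.06, SE 0.83, adjusted p = 0.145). Without PR-SET7_LOBE replicate 1, Igj (edgeR adjusted p = 0.0237) and Cd79b (0.0406) passed. DESeq2 also called both (0.00216 and 0.0365), and Igj passed edgeR's test with no count filter (0.0201). Calls over all genes rose in these 3 settings too, from 43 to 2392, 821 and 419.

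The WT group had 2 counts of Ms4a1 in all, so the PR-SET7_LOBE level is given as 11.9 times that of WT (95% counting interval from 3.13 to 101, adjusted p = 0.248). Cd22 averaged 17.5 ± 5.28 CPM in PR-SET7_LOBE and 28.6 ± 3.30 CPM in WT (log2 fold change -0.71, SE 0.41, adjusted p = 0.377). Fcer2a averaged 11.0 ± 5.02 CPM in PR-SET7_LOBE and 12.6 ± 2.26 CPM in WT (log2 fold change -0.19, SE 0.51, adjusted p = 0.863). For Fcer2a the SE leaves room for a change in either direction. Blk and Cr2 had log2 fold changes of 1.77 (SE 1.24) and 1.51 (SE 1.29), with adjusted p = 0.462 and 0.544.

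The second comparison set DEN injection against untreated wild-type liver. Cd22 and Fcer2a fell, and no other member passed: 2 of 8 were called lower, against 4.54% of all tested genes, and none higher, against 5.18% (9.73% in either direction). DESeq2 called 2 lower and 1 higher, against 6.71% and 9.62% of the genes it tested, and 3 members had an unadjusted p under 0.05, against 28.9% of all genes. Cd22 averaged 1.64 ± 0.941 CPM in DEN_WT and 28.6 ± 3.30 CPM in WT (SD, n = 2 each) (17.4-fold lower, log2 fold change -4.12, SE 0.56, edgeR adjusted p = 0.00231). Fcer2a averaged 0.266 ± 0.251 CPM in DEN_WT and 12.6 ± 2.26 CPM in WT (45.6-fold lower, log2 fold change -5.51, SE 0.79, adjusted p = 0.00257). Both passed under each of the 14 alternative settings tried, with adjusted p no higher than 0.0369 and 0.0374. The receptor chains did not follow. Cd79a averaged 0.487 ± 0.439 CPM in DEN_WT and 0.472 ± 0.145 CPM in WT (log2 fold change 0.05, SE 0.90, adjusted p = 0.981), and Cd79b averaged 0.310 ± 0.0631 CPM in DEN_WT and 0.372 ± 0.256 CPM in WT (log2 fold change -0.26, SE 0.84, adjusted p = 0.862). At this depth a change of these chains by several fold in either direction was not detectable.

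Igj was above WT in both DEN_WT libraries, as were 37.8% of all tested genes, 71.2% being without overlap in either direction. It averaged 8.31 ± 1.49 CPM in DEN_WT and 1.63 ± 1.22 CPM in WT (log2 fold change 2.34, SE 0.87, adjusted p = 0.107). It passed under 5 of the 14 alternatives, with a lowest adjusted p of 0.0113, and did not pass under the others. Of those 5, 1 leaves out PR-SET7_LOBE replicate 1 (0.0347). Calls over all genes also rose in each of the 5, from 1689 to between 2367 and 5643. Ms4a1 was also above WT without overlap, with 9 counts in DEN_WT and 2 in WT, which is 4.24 times the WT level (95% counting interval from 0.877 to 40.3, adjusted p = 0.391). Cr2 and Blk overlapped, with log2 fold changes of 0.50 (SE 1.43) and 0.33 (SE 1.39) and adjusted p = 0.844 and 0.896.

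The third comparison set Pr-Set7 inactivation against DEN injection. Fcer2a, Cd22 and Cd79b were higher in PR-SET7_LOBE: 3 of 8 members were called higher, against 4.82% of all tested genes, and none lower, against 6.26% (11.1% in either direction). An unadjusted p under 0.05 was found for 4 members and for 25.8% of all genes, and DESeq2 called 3 higher and none lower, against 6.63% and 7.19% of the genes it tested. Fcer2a averaged 11.0 ± 5.02 CPM in PR-SET7_LOBE (SD, n = 4) and 0.266 ± 0.251 CPM in DEN_WT (SD, n = 2) (log2 fold change 5.32, SE 0.76, edgeR adjusted p = 0.00175). Cd22 averaged 17.5 ± 5.28 CPM in PR-SET7_LOBE and 1.64 ± 0.941 CPM in DEN_WT (log2 fold change 3.41, SE 0.52, adjusted p = 0.00228). Cd22 missed the threshold without DEN_WT replicate 2 (adjusted p = 0.0520). Cd79b averaged 2.75 ± 0.431 CPM in PR-SET7_LOBE and 0.310 ± 0.0631 CPM in DEN_WT (log2 fold change 3.11, SE 0.75, adjusted p = 0.0223). Its call was lost without DEN_WT replicate 1 (adjusted p = 0.203) and without DEN_WT replicate 2 (adjusted p = 0.311). Cd79a averaged 2.06 ± 0.287 CPM in PR-SET7_LOBE and 0.487 ± 0.439 CPM in DEN_WT and did not pass (log2 fold change 2.05, SE 0.80, adjusted p = 0.131). Cd79a, Cd79b, Cd22, Fcer2a and Blk lay above DEN_WT without overlap, which held for 19.3% of all tested genes (21.2% lay below and 40.5% on either side). Blk did not pass (log2 fold change 1.43, SE 1.20, adjusted p = 0.477). Igj, Cr2 and Ms4a1 overlapped, with log2 fold changes of 0.72 (SE 0.71), 1.01 (SE 1.24) and 1.46 (SE 1.11) and adjusted p = 0.548, 0.634 and 0.433. The comparisons share groups of libraries, so their fold changes are set side by side here without a measure of agreement.

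**Figure D3:**
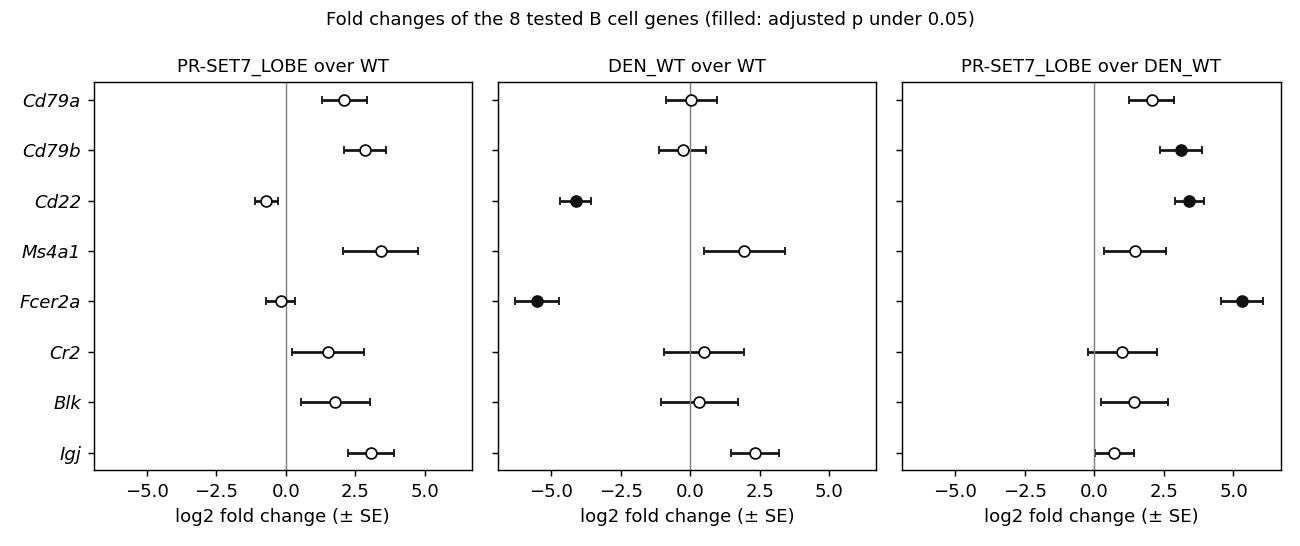
log2 fold change (point) and SE (bar) of the 8 tested genes in the 3 comparisons, named as first group over second, with filled points at an edgeR adjusted p under 0.05. Cd22 and Fcer2a were called in DEN_WT over WT and, with Cd79b, in PR-SET7_LOBE over DEN_WT; no gene was called in PR-SET7_LOBE over WT.

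Other genes used by the B lineage were read in 5 further lists. Some of them stood far above Cd79a (0.177 to 2.30 CPM over the 8 libraries). Cd81 ran from 80.6 to 336 CPM and Pik3ap1 from 76.4 to 167 CPM. The cells that the reads of these lists came from were not measured, so the list medians are not a measure of B cells. Of 19 other B cell surface genes, 18 were tested and none passed in PR-SET7_LOBE over WT. An unadjusted p under 0.05 was found for 8 of them (17.2% of all genes). DESeq2 called 3 higher (3.25% of the genes it tested). The median log2 fold change of the 18 was 1.33 and 15 were above 0, beside a median of 0.11 over all tested genes. Those with the smallest adjusted p were Ly6d (0.0971), Cd83 (0.157), Icosl (0.158) and the co-stimulatory receptor Cd40 (0.208). Ly6d was at 148, 33.6, 169 and 19.8 CPM in PR-SET7_LOBE, against 4.40 and 1.48 CPM in WT. Cd72, an inhibitory B cell receptor, was at 6.01, 20.9, 9.75 and 7.47 CPM in PR-SET7_LOBE, against 4.88 and 0.922 CPM in WT (adjusted p = 0.239). In DEN_WT over WT the median of this list was 0.63, beside 0.06 over all genes. Icosl and Ly6d rose, as did 5.18% of all tested genes. Icosl, the ligand of the T cell co-stimulator ICOS, was at 5.76 and 7.33 CPM in DEN_WT and 1.53 and 0.553 CPM in WT (log2 fold change 2.64, SE 0.65, edgeR adjusted p = 0.0294). Ly6d was at 22.0 and 85.1 CPM in DEN_WT and 4.40 and 1.48 CPM in WT (log2 fold change 4.19, SE 1.12, adjusted p = 0.0413). In PR-SET7_LOBE over DEN_WT none of the 18 passed, with a median of 0.69 beside 0.18 over all genes. There 2 had an unadjusted p under 0.05 (25.8% of all genes). DESeq2 called 1 higher (6.63% of the genes it tested).

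Of 14 intracellular signalling genes such as Lyn, Syk, Btk and Blnk, all were tested and none passed edgeR's test in any of the 3 comparisons. An unadjusted p under 0.05 was found for 1 in PR-SET7_LOBE over WT (17.2% of all genes), 1 in DEN_WT over WT (28.9% of all genes) and 6 in PR-SET7_LOBE over DEN_WT (25.8% of all genes). DESeq2 called 0, 0 and 2 in these comparisons, the 2 being higher, as were 6.63% of the genes it tested there. Their medians were 0.55, 0.00 and 0.44 on the log2 scale. Btk, the kinase downstream of Syk, was at 0.376, 2.10, 2.69 and 1.64 CPM in PR-SET7_LOBE, 1.15 and 1.41 CPM in DEN_WT, and 0.383 and 0.369 CPM in WT, with adjusted p = 0.266 in PR-SET7_LOBE over WT. Syk itself was at 26.5, 28.7, 38.7 and 16.4 CPM in PR-SET7_LOBE and 10.3 and 9.54 CPM in DEN_WT (log2 fold change 1.48, SE 0.44, adjusted p = 0.0556).

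Of 13 B cell transcription factors, 12 were tested. Bcl11a, a zinc finger factor needed for B cell development, fell in DEN_WT over WT and was the only one of them that edgeR called in any comparison. In PR-SET7_LOBE over WT none passed, with 2 at an unadjusted p under 0.05 (17.2% of all genes) and 0 called by DESeq2. In DEN_WT over WT 2 had an unadjusted p under 0.05 (28.9% of all genes). DESeq2 called 1 lower there (6.71% of the genes it tested). In PR-SET7_LOBE over DEN_WT 3 had one (25.8% of all genes). DESeq2 called 2 higher there (6.63% of the genes it tested). Bcl11a was at 11.4, 5.07, 5.38 and 13.3 CPM in PR-SET7_LOBE, 0.620 and 1.06 CPM in DEN_WT, and 11.0 and 15.1 CPM in WT. Its log2 fold change was -3.94 in DEN_WT over WT (SE 0.69, edgeR adjusted p = 0.00630) and 3.37 in PR-SET7_LOBE over DEN_WT (SE 0.64, adjusted p = 0.00660). Of all tested genes, 4.54% were called lower in DEN_WT over WT and 4.82% higher in PR-SET7_LOBE over DEN_WT. Bcl11a, like Cd22 and Fcer2a, was among these genes, and a link between the 3 was not tested. Pou2af1, the B cell co-activator of octamer-binding factors, was at 1.50, 0.861, 3.06 and 5.37 CPM in PR-SET7_LOBE, 1.59 and 0.795 CPM in DEN_WT, and 0.383 and 0.369 CPM in WT (adjusted p = 0.189 in PR-SET7_LOBE over WT). Ebf1, which acts with Pax5, had 28 counts in PR-SET7_LOBE, 14 in DEN_WT and 1 in WT and did not pass the count filter. The medians of the list were 0.17, -0.70 and 1.16 in the 3 comparisons.

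Of 10 plasma cell genes, 9 were in the table and 8 were tested. Xbp1, a secretory factor that hepatocytes also express, rose in DEN_WT, at 626 and 905 CPM against 238 and 277 CPM in WT (log2 fold change 1.57, SE 0.44, edgeR adjusted p = 0.0464). Xbp1 and the elongation factor Ell2 were lower in PR-SET7_LOBE than in DEN_WT (adjusted p = 0.0120 and 0.00619), as were 6.26% of all tested genes. No plasma cell gene passed in PR-SET7_LOBE over WT, with 1 at an unadjusted p under 0.05 (17.2% of all genes) and 0 called by DESeq2. Tnfrsf17, the plasma cell receptor for survival factors, had 6 counts in PR-SET7_LOBE, 0 in DEN_WT and 2 in WT. The immunoglobulin constant genes, of which 7 were tested, summed to between 175 and 419 CPM in PR-SET7_LOBE, between 48.9 and 59.9 CPM in DEN_WT and between 35.3 and 72.8 CPM in WT. Ighg2c rose in PR-SET7_LOBE over WT (22.4, 14.9, 32.4 and 26.1 CPM against 1.15 and 0.369 CPM, log2 fold change 4.96, SE 0.62, adjusted p = 0.0114). It was the only 1 of the 7 that edgeR called there, where 0.15% of all tested genes were called higher. An unadjusted p under 0.05 was found for 4 of the 7 (17.2% of all genes). DESeq2 called 3 higher (3.25% of the genes it tested). The kappa constant gene Igkc was at 97.4, 120, 282 and 103 CPM in PR-SET7_LOBE, 27.4 and 44.0 CPM in DEN_WT, and 30.9 and 11.5 CPM in WT (adjusted p = 0.0956 in PR-SET7_LOBE over WT). In PR-SET7_LOBE over DEN_WT, edgeR called 2 of 7 higher (4.82% of all tested genes), with a median log2 fold change of 3.45. All 7 had an unadjusted p under 0.05 (25.8% of all genes), and DESeq2 called 6 higher (6.63% of the genes it tested). The 2 that edgeR called were Ighg2c (log2 fold change 3.55, SE 0.55, edgeR adjusted p = 0.00248) and Ighg3 (3.32, SE 0.93, adjusted p = 0.0437). In DEN_WT over WT none of the 7 passed edgeR's test, with 1 at an unadjusted p under 0.05 (28.9% of all genes) and 0 called by DESeq2. The gamma constant genes are similar copies within the heavy chain locus, so reads may be split between them.

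**Figure D4:**
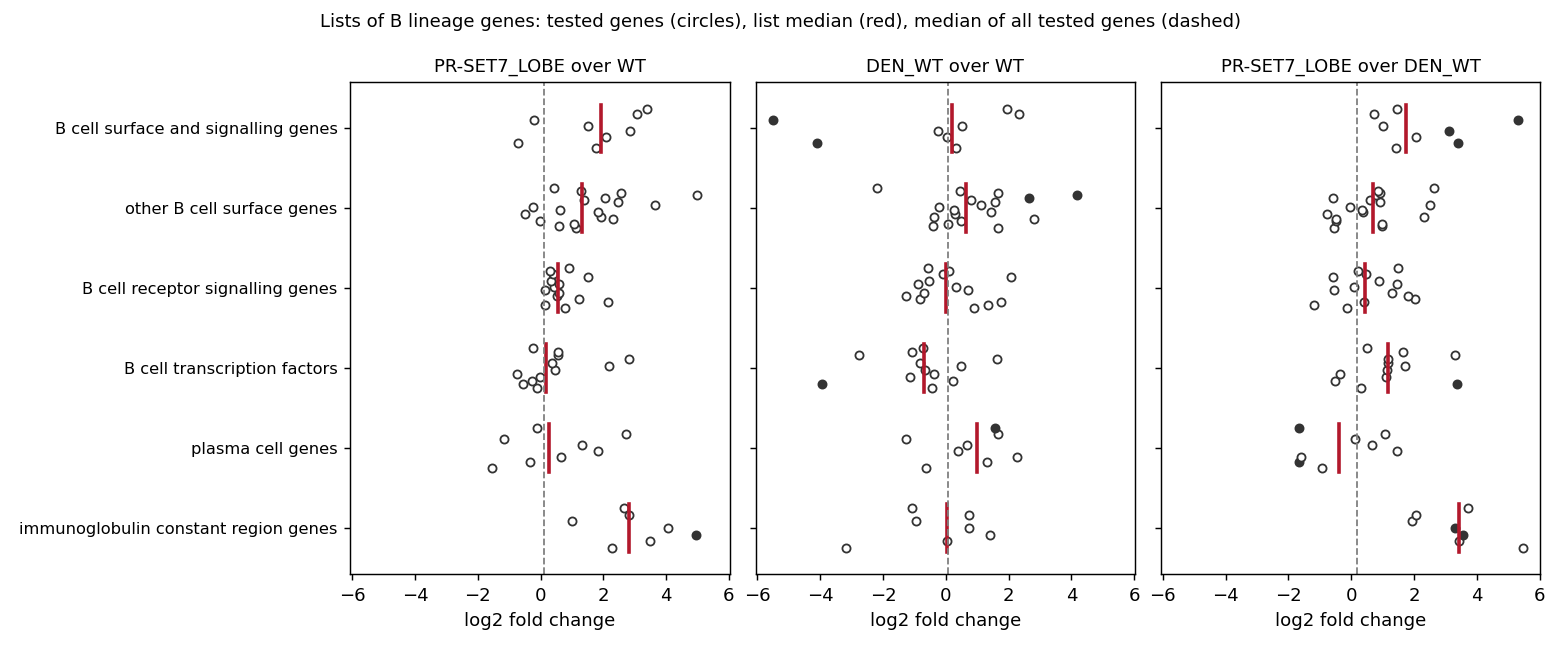
log2 fold changes of the tested genes of 6 B lineage lists in the 3 comparisons (circles, filled at an edgeR adjusted p under 0.05), with the list median in red and the median of all 17362 tested genes as a dashed line. In PR-SET7_LOBE over WT the list medians ran from 0.17 to 2.83, beside 0.11 for all genes. Lists of other cells, not drawn, also had raised medians there. These were 2.80 (follicle stroma, 4 tested genes), 1.78 (neutrophil, 6), 1.69 (dendritic, 8), 1.13 (T and NK, 16), 1.10 (platelet, 2) and 0.29 (macrophage, 11). The 2 platelet genes had opposite signs, at -0.37 and 2.58. The erythroid and hepatocyte medians were -1.26 and -0.81.

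Markers of other cells are given as summed levels, with their calls. The 18 T and NK cell markers summed to between 32.0 and 46.6 CPM in PR-SET7_LOBE, between 14.0 and 16.6 CPM in DEN_WT and between 29.3 and 34.6 CPM in WT, where Cd3g was at 0. Of these sums, Cd3d alone made 14.0 and 13.6 CPM in WT and 0.354 and 0.265 CPM in DEN_WT. In DEN_WT over WT, 10 of the 16 tested T and NK cell markers had a log2 fold change above 0. The 8 dendritic cell markers summed to between 28.7 and 49.8 CPM in PR-SET7_LOBE, between 18.7 and 21.6 CPM in DEN_WT and between 27.1 and 28.8 CPM in WT. Xcr1 alone made 19.5 and 17.5 CPM of this in WT and 1.68 and 1.32 CPM in DEN_WT. In DEN_WT over WT, 7 of the 8 had a log2 fold change above 0. Itgax rose in PR-SET7_LOBE and in DEN_WT over WT (edgeR adjusted p = 0.0411 and 0.0422). The 5 genes of lymphoid follicle stroma summed to between 26.0 and 176 CPM in PR-SET7_LOBE, between 41.4 and 66.8 CPM in DEN_WT and between 14.6 and 18.6 CPM in WT, most of it Mfge8. None of 4 tested passed in any comparison, with 3 in PR-SET7_LOBE over WT, 2 in DEN_WT over WT and 0 in PR-SET7_LOBE over DEN_WT at an unadjusted p under 0.05 and 1, 1 and 0 called by DESeq2. Cxcl13, the chemokine that draws B cells into follicles, was at 6.86, 1.53, 0.464 and 0.911 CPM in PR-SET7_LOBE, 1.95 and 5.03 CPM in DEN_WT, and 0.383 and 0.369 CPM in WT. The 7 erythroid markers, a measure of blood in the sample, summed to between 304 and 1219 CPM in PR-SET7_LOBE, between 762 and 1017 CPM in DEN_WT and between 1742 and 2672 CPM in WT. The 11 macrophage markers summed to between 546 and 1464 CPM in PR-SET7_LOBE, between 415 and 577 CPM in DEN_WT and between 467 and 1646 CPM in WT. For the 10 neutrophil markers the sums were 12.4 to 41.6 CPM in PR-SET7_LOBE, 3.27 to 7.35 CPM in DEN_WT and 17.3 to 28.7 CPM in WT, and for the 5 platelet markers 6.47 to 11.8 CPM in PR-SET7_LOBE, 3.97 to 4.87 CPM in DEN_WT and 8.02 to 8.71 CPM in WT. Of the neutrophil sums, Cxcr2 alone made 12.0 and 18.9 CPM in WT and 2.30 and 1.41 CPM in DEN_WT. In DEN_WT over WT, 2 of the 6 tested neutrophil markers had a log2 fold change above 0. Of 16 tested T and NK cell markers, edgeR called 2 lower in DEN_WT over WT (4.54% of all tested genes). It called 2 higher in PR-SET7_LOBE over DEN_WT (4.82% of all tested genes). None passed in PR-SET7_LOBE over WT (4 at an unadjusted p under 0.05, 0 called by DESeq2). Of 6 tested neutrophil markers, edgeR called 1 lower in DEN_WT over WT and 1 higher in PR-SET7_LOBE over DEN_WT. In PR-SET7_LOBE over WT it called 0 neutrophil markers. Of 8 tested dendritic cell markers, it called 1 higher in PR-SET7_LOBE over WT. In DEN_WT over WT it called 1 of these higher and 1 lower, and in PR-SET7_LOBE over DEN_WT 1 higher. No macrophage, erythroid or platelet marker passed edgeR's test in any comparison. In PR-SET7_LOBE over WT, DEN_WT over WT and PR-SET7_LOBE over DEN_WT, an unadjusted p under 0.05 was found for 0, 3 and 2 macrophage markers, 3, 3 and 0 erythroid markers and 1, 1 and 0 platelet markers. DESeq2 called 0, 1 and 2 macrophage markers, 0, 2 and 0 erythroid markers and no platelet marker. An unadjusted p under 0.05 was found for 1, 2 and 4 neutrophil markers and 4, 4 and 3 dendritic cell markers. For neutrophil markers DESeq2 called 1 higher, 2 lower and 1 higher. For dendritic cell markers it called 1 higher, 1 in each direction and 1 higher. Over all tested genes, an unadjusted p under 0.05 was found for 17.2%, 28.9% and 25.8% in these comparisons. Of all tested genes, edgeR called 0.15%, 5.18% and 4.82% higher, and 0.0979%, 4.54% and 6.26% lower. DESeq2 called 3.25%, 9.62% and 6.63% of the genes it tested higher, and 1.18%, 6.71% and 7.19% lower. The part of these cells in the results for the B cell genes was not tested.

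Across the 8 libraries, the 8 tested members did not share 1 profile. Cd22 and Fcer2a correlated at r = 0.956 on the log2 CPM scale, and Cd79a and Cd79b at 0.898, while Cd22 correlated with Cd79a at 0.468, with Ms4a1 at -0.03 and with Igj at -0.38. These values describe 8 libraries in 3 groups, share the scaling of each library and carry no test. The genes most like the mean standardised profile of the members were Alpk3, Sema4f, Tmprss3, Itgb6, Ndrg4, Cdh18, Slc28a2 and Pparg, with Pearson r from 0.953 to 0.986. For Cd22 alone, a choice made after its values were seen, the closest were Fgf13, Tfap2a, Dok5 and Chst3 (r from 0.993 to 0.996). For Fcer2a, chosen in the same way, genes among the closest were Chrnb4, Csf3r and Cybrd1 (r from 0.994 to 0.995). Fgf13 averaged 9.62 CPM in PR-SET7_LOBE, 0.266 CPM in DEN_WT and 20.5 CPM in WT, and Chrnb4 averaged 11.0 CPM in PR-SET7_LOBE, 0.265 CPM in DEN_WT and 12.3 CPM in WT. None of these 7 genes is on the B lineage lists. Those lists hold few of the 17362 tested genes, and immunoglobulin and T cell receptor genes were left out of the ranking. No conclusion on the source of the reads is drawn from it.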

How the data were processed

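Messenger RNA of 8 mouse liver libraries was sequenced on an Ion Proton, per the labels' protocols. The authors deposited a table of unnormalised read counts for each Ensembl gene, which the 8 single-sample files repeat. The submitters' processing notes name the mm9 build and TopHat2 2.0.9, DESeq and Cufflinks. How reads were counted, with which annotation and strand setting, is not given in the sources used here. The labels do not say that replicates are separate animals, so the spread behind the p-values is that between samples and may be technical. Replicates differed by more than sampling noise (lowest chi-square per degree of freedom 27.4).

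Of 37583 genes, 17362 passed edgeR 4.0.16's filterByExpr. All 8 libraries entered 1 robust quasi-likelihood fit with TMM scaling and the group as the only term, because 2 groups hold 2 libraries. P-values were adjusted over all tested genes with the Benjamini-Hochberg method, and rose, fell or called means an adjusted p under 0.05. SE is the log2 fold change divided by the square root of the F statistic. CPM, as edgeR defines it, is computed on the TMM-scaled library size of the tested genes, and SD is over libraries. Counting intervals (95%) and floors (3 counts) cover counting error only, since reads carry no molecular identifiers. Exon lengths are unions of GENCODE M21 exons, matched by identifier for all 9 genes; promoter windows are RefSeq's, and no coordinates were moved between builds. The fit was tested on simulated counts. Members and lists were chosen with earlier results of these data known. Named genes are the 9 members, up to 4 genes per list with the smallest adjusted p, genes that overlap a member and the 8 named genes most like the members' mean profile (Pearson r over log2 CPM with a prior count of 2). Cd72, Cd81, Pik3ap1, Ebf1, Cxcl13, Tnfrsf17, Mfge8, Cd3d, Cd3e, Cd3g, Cd8a, Cd8b1, Xcr1, Clec9a, Itgax, Cxcr2 and the genes most like Cd22 and Fcer2a were added after their values were seen. Some genes of the lists are not reported here. Alternatives were RLE and upper-quartile scaling, DESeq2 1.42.0, no count filter, only the 2 groups compared, a replicate block, and leaving out each library.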

Additional observations from a re-analysis of the deposited data

How the results depend on the processing

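No member changed direction under another scaling, and the calls of Cd22 and Fcer2a in DEN_WT over WT held under every alternative. The number of members called in PR-SET7_LOBE over WT was 0, but 2 with DESeq2 and 1 with no count filter, and 0 to 2 with 1 library left out. It was 2 to 3 in DEN_WT over WT and 1 to 3 in PR-SET7_LOBE over DEN_WT with 1 library left out; the cause was not tested. Over all genes, PR-SET7_LOBE over WT gave 43 calls (26 higher, 17 lower), against 66 with upper-quartile scaling (47 higher, 19 lower), 821 with DESeq2, 419 with no count filter, 243 with the replicate block, 19 with only these 2 groups and 1 (without WT replicate 2) to 2392 (without PR-SET7_LOBE replicate 1) with 1 library left out. DEN_WT over WT gave 1689, against 3027 with DESeq2, 3137 with the replicate block, 5643 with only these 2 groups, and 329 to 4549 with 1 library left out. PR-SET7_LOBE over DEN_WT gave 1924, and 454 to 2662 with 1 library left out. With upper-quartile scaling the median of all genes was 0.29 (0.11 with TMM) in PR-SET7_LOBE over WT and 0.28 (0.18 with TMM) in PR-SET7_LOBE over DEN_WT. A single remaining DEN_WT or WT library was taken to vary as the other groups do.

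Sign changes touched members that were not called. In PR-SET7_LOBE over WT, Fcer2a was at 0.19 with the replicate block and ran from -0.48 to 0.072 with 1 library left out (above 0 without PR-SET7_LOBE replicate 3 or WT replicate 2), and Cr2 was at -0.54 with the block. In DEN_WT over WT, Cd79a was at -0.046 with the block, -1.34 without DEN_WT replicate 1 and -0.13 without WT replicate 2; with 1 library left out, Cd79b ran from -0.80 to 0.76, Blk from -0.62 to 5.02 and Cr2 from -0.25 to 1.54. In PR-SET7_LOBE over DEN_WT, Cr2 was at -1.40 and Igj at -0.21 with the block; with 1 library left out, Cr2 ran from -0.037 (without PR-SET7_LOBE replicate 4) to 1.74 and Igj from -0.027 (without PR-SET7_LOBE replicate 3) to 1.03. Libraries with the same number correlated in their deviations at -0.01 to 0.17, and nothing in the labels pairs them, so the block is a check only; it added Igj to the calls in DEN_WT over WT (adjusted p = 0.0113) and changed no other member's call. At about 0.09 CPM per count, Pax5, Blk and Ms4a1 rest on 20, 56 and 59 counts over all libraries.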

Other observations

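Some T cell and dendritic cell genes were also low in DEN_WT, and each is given beside a related gene; these genes were chosen after their values were seen, and the difference within a pair was not tested. Of 16 tested T and NK cell markers, 2 were called lower in DEN_WT over WT and 10 had a log2 fold change above 0 (median 0.24), and of 8 dendritic cell markers 1 was called lower, 1 higher and 7 were above 0; 4.54% of all tested genes were called lower. Cd3d, a chain of the T cell receptor complex, was at 13.8, 6.22, 4.08 and 6.47 CPM in PR-SET7_LOBE, 0.354 and 0.265 CPM in DEN_WT, and 14.0 and 13.6 CPM in WT. It fell in DEN_WT over WT (log2 fold change -5.42, SE 0.76, edgeR adjusted p = 0.00237). Cd3e, its partner chain, was at 0.470, 0.765, 1.58 and 2.19 CPM in PR-SET7_LOBE, 0.354 and 0.707 CPM in DEN_WT, and 0.957 and 0.645 CPM in WT (DEN_WT over WT, adjusted p = 0.730), and Cd3g had 0 counts in both WT libraries. Cd8b1 fell in DEN_WT as well (0.443 and 0.442 CPM in DEN_WT against 4.88 and 5.44 CPM in WT, log2 fold change -3.51, SE 0.71, adjusted p = 0.0123). Cd8a, the other CD8 chain, was at 0.531 and 0.883 CPM in DEN_WT and 0.383 and 0.645 CPM in WT (adjusted p = 0.765). Xcr1, a chemokine receptor of cross-presenting dendritic cells, was at 9.96, 20.7, 11.2 and 9.38 CPM in PR-SET7_LOBE, 1.68 and 1.32 CPM in DEN_WT, and 19.5 and 17.5 CPM in WT (DEN_WT over WT, log2 fold change -3.61, SE 0.55, adjusted p = 0.00344). Clec9a, a lectin of the same dendritic cells, was at 0.845, 1.34, 2.51 and 2.00 CPM in PR-SET7_LOBE, 2.30 and 2.91 CPM in DEN_WT, and 0.191 and 0.645 CPM in WT (adjusted p = 0.0790).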
